A study of Mus musculus with 13 samples.

Results

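The livers compared here came from N750F mice and from wild type mice, both taken after the carcinogen diethylnitrosamine (DEN). The 7 arrays were chosen by their labels alone, 5 described as the RB N750F mutant with DEN and 2 described as floxed without Cre with DEN, out of 13 arrays in the series. The series describes mice that combine the N750F allele of Rb1, a floxed exon 19 of Rb1 and the wild type allele with a Cre recombinase that the albumin promoter drives in hepatocytes. For the N750F mice the label gives the mutation but neither the other Rb1 allele nor the presence of Cre. The wild type mice carried floxed Rb1 without Cre. All 7 mice were injected intraperitoneally with 20 mg/kg DEN at 14 days of age, and the livers were taken 24 h later. The remaining arrays were 2 knockout livers (floxed Rb1 with Cre) and 2 heterozygous livers (1 functional and 1 floxed allele with Cre, tagged LOH in another field), both after DEN, and 2 untreated wild type livers, which received saline. They entered the same model and are given as context. Total RNA of frozen liver was amplified and hybridised to single-colour Affymetrix arrays. Nothing in the labels says whether mice came from separate litters, so each p-value describes the spread among arrays, which may be partly technical. An untreated N750F liver was not analysed here, so a difference present before DEN and a different response to DEN cannot be told apart.

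The product of Rb1, the retinoblastoma protein, restrains E2F transcription factors and through them the genes needed for S phase. The protein also has a cleft that contacts partners carrying an LXCXE motif, among them histone deacetylases and chromatin regulators, and the N750F substitution lies in that cleft. Genes used in DNA replication are in general read by E2F factors at the start of S phase, while genes used in mitosis are read later, through CCAAT boxes and a short element called CHR (cell cycle genes homology region) bound by the MuvB complexes. DEN is turned into a DNA-alkylating agent by cytochromes P450 of the hepatocyte, and at 2 weeks of age many hepatocytes of the mouse liver still divide.

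Levels are given as log2 of the quantile-normalized intensity plus 16, and changes as N750F minus wild type on that scale with the SE of a limma model that held all 13 arrays and a term for array batch. A gene is called, and written as higher, lower, risen or fallen, where the Benjamini-Hochberg adjusted p over 14953 genes is under 0.05. The arrays were run in 2 batches. N750F arrays 1, 2 and 3 and wild type array 3 lay in batch 1, and N750F arrays 4 and 5 and wild type array 4 lay in batch 2. Deposited median intensities were 78.2 to 81.6 in the N750F arrays of batch 1, against 82.99 in wild type array 3, and 48.2 and 73.3 in the N750F arrays of batch 2, against 55.3 in wild type array 4. Correlations across probe sets were 0.893 to 0.973 among the N750F arrays, 0.876 between the wild type arrays and 0.824 to 0.947 between the groups, so the 2 wild type arrays were less alike than any 2 N750F arrays. By Xist and the Y-linked genes N750F mouse 1 was male and N750F mice 2 to 5 and both wild type mice were female. With 2 wild type arrays, 1 in each batch, each call leans on both of them. The 10 hepatocyte markers averaged 10.88, 11.12, 10.89, 10.86 and 10.79 in N750F livers, against 11.19 and 10.94 in wild type livers. Albumin (Alb) ran from 12.79 to 13.01 in N750F livers, against 12.95 and 12.91 in wild type livers, so all 7 arrays carried the defining marker of liver at a like level.

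The promoters below are shown because 72 of the 169 genes higher in N750F livers were listed genes of cell division or DNA replication, whose promoters are known for different short elements. Sequences and start sites are from RefSeq on assembly GRCm38.p6, only bases upstream of the start are printed, 5′ to 3′ on the strand of the gene, and distances are counted back from the first listed start. Capitals mark the CHR word TTTGAA, the CCAAT word CCAAT, and the E2F words TTTCCCGC, TTTGGCGC, TTTCGCGC and TTTGCCGC, each on either strand. None of these words contains another.
Top2a, bases 240 to 1 before the start, chr11:99024190-99024429, minus strand: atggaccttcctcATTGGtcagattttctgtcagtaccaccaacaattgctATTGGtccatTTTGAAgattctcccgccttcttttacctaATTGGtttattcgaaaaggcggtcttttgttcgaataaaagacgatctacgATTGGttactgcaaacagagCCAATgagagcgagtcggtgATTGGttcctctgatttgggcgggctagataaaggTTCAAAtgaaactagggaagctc
Mki67, bases 200 to 51 before the start, chr7:135716430-135716579, minus strand: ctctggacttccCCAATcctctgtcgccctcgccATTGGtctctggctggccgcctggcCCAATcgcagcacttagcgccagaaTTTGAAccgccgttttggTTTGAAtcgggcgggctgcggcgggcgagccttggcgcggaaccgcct
Depdc1a, bases 100 to 1 before the start, chr3:159495333-159495432, plus strand: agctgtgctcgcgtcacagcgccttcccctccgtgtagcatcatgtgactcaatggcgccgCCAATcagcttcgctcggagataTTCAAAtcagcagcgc
Hells, bases 120 to 1 before the start, chr19:38930870-38930989, plus strand: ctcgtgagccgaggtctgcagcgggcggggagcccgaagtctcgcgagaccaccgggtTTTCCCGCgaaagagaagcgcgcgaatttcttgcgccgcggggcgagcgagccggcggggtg
Kif18a, bases 100 to 1 before the start, chr2:109280638-109280737, plus strand: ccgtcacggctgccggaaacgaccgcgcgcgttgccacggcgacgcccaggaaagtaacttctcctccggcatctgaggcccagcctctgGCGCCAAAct
Top2a (DNA topoisomerase II alpha, which untangles chromosomes before they separate) held 6 CCAAT words and 2 CHR words in this stretch, and Mki67 (the proliferation antigen Ki-67) held 3 and 2. Depdc1a, a mitotic protein, held 1 of each. Hells, a chromatin remodelling helicase, and Kif18a, a kinesin that damps chromosome movement, each held 1 E2F word, from 62 to 55 and from 10 to 3 bases before the start.

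After DEN, 169 genes were higher in N750F than in wild type livers and 43 were lower, which was 1.13% and 0.288% of the 14953 tested. All 5 N750F arrays lay above both wild type arrays for 1014 genes (6.78%) and below both for 1032 (6.9%), and the median change over all genes was -0.01. At an unadjusted p under 0.05 limma gave 1345 of the 14953 genes higher and 848 lower. Counts at an unadjusted p in the lists below come from the same model and are to be read beside these. Of the 169 higher genes 57 belonged to the lists of cell division (chromosome condensation, the spindle, the kinetochore and cytokinesis), 15 to those of DNA replication and 97 to neither. Of the 43 lower genes 10 belonged to the lists of drug metabolism (cytochromes P450, glutathione S-transferases and conjugating enzymes) and 33 lay outside these lists. The counts rested on wild type array 4. Without it limma called 2 genes, Onecut1 and Agbl4 (the second named here after its values were seen), with 791 at an unadjusted p under 0.05. Batch 1 alone, which also holds 1 wild type DEN array, kept none of the calls. The model without wild type array 3 called more genes in all, but it lost some of the calls made with all arrays. The sizes of the changes moved less than the calls. Over the 212 called genes the median ratio to the change with all arrays was 0.87 in batch 1 alone and 1.15 in batch 2 alone. Single genes moved more than that, and values within each batch are given below for some genes and groups only.

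**Figure D1:**
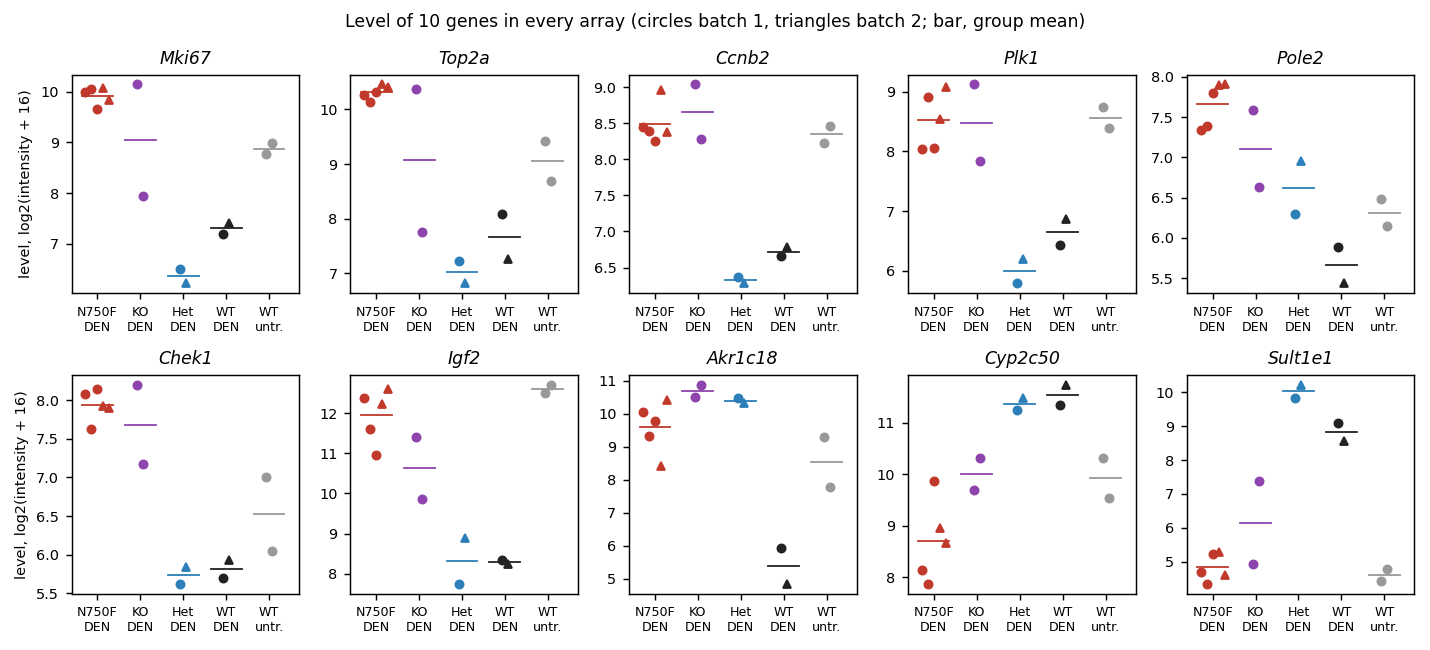
Level of 10 genes in every array, as log2 of the normalized intensity plus 16, with N750F livers left of knockout, heterozygous and wild type livers after DEN and untreated wild type livers. Circles are batch 1, triangles batch 2 and bars group means; for Mki67 the 5 N750F arrays sit between 9.66 and 10.06, above the 2 wild type DEN arrays at 7.20 and 7.42.

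Rb1 itself was not called. The level of Rb1 was 8.23, 7.82, 8.43, 8.06 and 7.93 in N750F livers, against 8.04 and 8.01 in wild type livers, a change of 0.05 ± 0.30 (adjusted p = 0.956, limma). The groups overlapped for Rb1. An expression array does not read the N750F substitution, so this level does not check the genotype.

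Of 20 listed genes of the RB family, the E2F factors and the DREAM complex, which represses cell cycle genes in resting cells, 17 passed the filter on dim genes and 1 was called. Rbl1, which encodes the RB relative p107 and is a known E2F target, had 8.13, 8.39, 8.66, 8.02 and 7.58 in N750F livers, against 7.21 and 6.19 in wild type livers (1.39 ± 0.29, adjusted p = 0.0322). Foxm1, the transcription factor of the G2 and M phases, stood at 7.69, 8.02, 8.05, 6.77 and 8.28 in N750F livers, against 6.19 and 5.95 in wild type livers, a change of 1.67 ± 0.44 that missed the threshold (adjusted p = 0.0834). For both genes every N750F array lay above both wild type arrays. The repressor E2f8 had a change of 1.43 ± 0.52 (adjusted p = 0.232), and the list's median change was 0.20. E2f1, E2f2 and Mybl2 were too dim to pass the filter and were not tested.

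None of 16 tested G1 cyclins, their kinases and inhibitors was called by limma. At an unadjusted p under 0.05, 6 were higher (1345 of 14953 over all genes), and the median was 0.36. Ccne2, cyclin E2, which drives entry into S phase, had 8.76, 8.89, 9.27, 8.90 and 8.60 in N750F livers, against 7.90 and 7.53 in wild type livers (1.14 ± 0.30, adjusted p = 0.0797). Ccnd1, cyclin D1, ran from 5.93 to 7.47 in N750F livers, against 6.11 and 6.98 in wild type livers, so the groups overlapped (0.43 ± 0.35, adjusted p = 0.596). The inhibitor Cdkn1c was at 7.97 to 9.15 in N750F livers, against 7.48 and 7.94 in wild type livers (1.00 ± 0.24, adjusted p = 0.0532). Of 15 tested genes listed as chromatin partners of the LXCXE cleft 1 was called. Membership is that of the list, and an array does not read whether a product contacts the cleft. The called gene was Ezh2, the histone methyltransferase of Polycomb complex 2, at 9.29, 9.05, 9.21, 9.08 and 9.53 in N750F livers, against 8.05 and 7.01 in wild type livers (1.68 ± 0.29, adjusted p = 0.0117). Hdac1, the deacetylase, had 0.62 ± 0.27 (adjusted p = 0.306).

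The clearest group was that of cell division. Of 112 listed genes 109 had a probe set and 97 were tested. Of these 57 were higher in N750F livers (58.8%, against 1.13% of all genes), none was lower, and 40 were not called. The median change was 1.73, against -0.01 for all genes, and for 81 of the 97 all 5 N750F arrays lay above both wild type arrays (83.5%, against 6.78%). The mean level of the 97 genes was 8.02, 8.19, 8.22, 8.32 and 8.28 in N750F livers, against 6.75 and 6.57 in wild type livers. The N750F arrays thus lay close together, and every one of them was above both wild type arrays. The median change was 1.48 within batch 1 and 1.79 within batch 2. Without wild type array 4 these calls were lost, and the median change was 1.54. Without wild type array 3 the number called was 33.

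**Figure D2:**
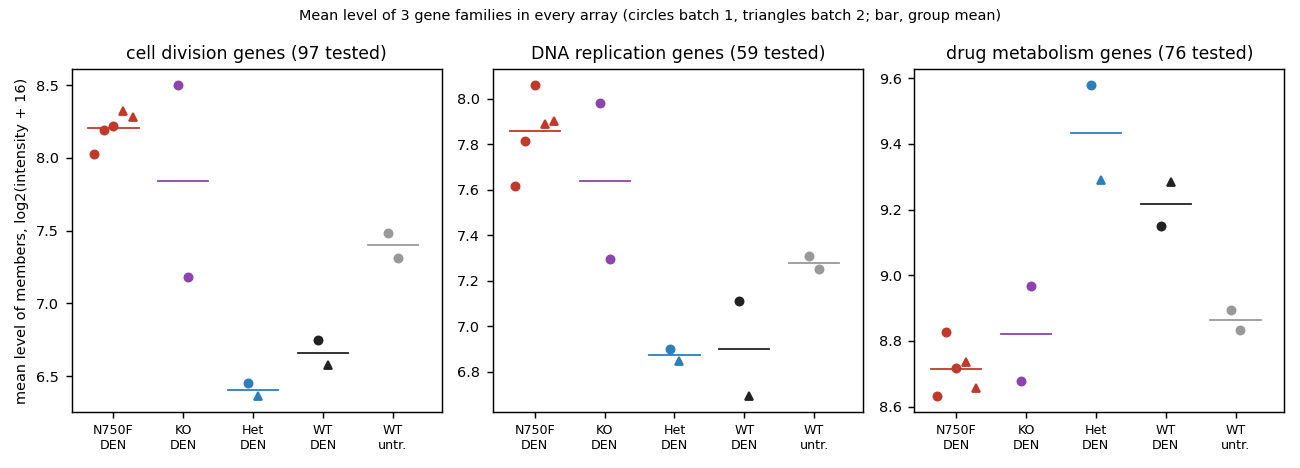
Mean level of the tested genes of cell division (97), DNA replication (59) and drug metabolism (76) in every array, as log2 of the normalized intensity plus 16, with N750F livers left of the other groups. Circles are batch 1, triangles batch 2 and bars group means; the N750F arrays average 8.02 to 8.32 for cell division against 6.75 and 6.57 in wild type DEN livers, and 8.63 to 8.83 for drug metabolism against 9.15 and 9.28.

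Chromosome condensation opened the list. Of 11 tested genes 7 were higher, with a median of 1.40, and for all 11 every N750F array lay above both wild type arrays. Top2a had 10.26, 10.14, 10.33, 10.46 and 10.41 in N750F livers, against 8.08 and 7.25 in wild type livers (2.63 ± 0.49, adjusted p = 0.0176, or 6.19-fold). A second, dim probe set of Top2a read 5.11 to 5.84 in N750F livers, against 4.93 to 5.98 in wild type livers, and showed no such difference (0.06 ± 0.28). With the probe sets of a gene averaged, the change of Top2a was 1.34 ± 0.35 and was not called (adjusted p = 0.0859). Mki67, which coats mitotic chromosomes, had 9.99, 10.05, 9.66, 10.06 and 9.83 in N750F livers, against 7.20 and 7.42 in wild type livers (2.61 ± 0.40, adjusted p = 0.00904). The N750F arrays were tight for both, and both batches showed the difference (2.16 and 3.18 for Top2a, 2.70 and 2.52 for Mki67). The condensin subunit Smc2 rose by 2.06 ± 0.33, Ncapg by 1.93 ± 0.36 and the chromatin protein Hmgb2 by 1.39 ± 0.24, with adjusted p-values of 0.00904 to 0.0185. The condensin II subunit Ncapd3 had 0.59 ± 0.25 (adjusted p = 0.292).

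Of 18 tested mitotic cyclins and kinases 14 were higher, with a median of 1.94. Ccnb2, cyclin B2, which with Cdk1 drives entry into mitosis, had 8.45, 8.39, 8.26, 8.97 and 8.38 in N750F livers, against 6.66 and 6.78 in wild type livers (1.79 ± 0.24, adjusted p = 0.00495). Plk1, polo-like kinase 1, had 8.04, 8.91, 8.05, 8.55 and 9.07 in N750F livers, against 6.42 and 6.87 in wild type livers (1.92 ± 0.33, adjusted p = 0.0114). The groups did not overlap for either gene. Ccna2, the cyclin of S and G2 phases, changed by 2.67 ± 0.56 (adjusted p = 0.0341), and Cdk1, its kinase partner, by 1.39 ± 0.31 (adjusted p = 0.041). Mastl, the kinase that keeps mitotic phosphorylation in place, had 8.03, 8.26, 8.20, 7.93 and 7.85 in N750F livers, against 6.40 and 4.28 in wild type livers. Its change was 1.77 in batch 1 and 3.61 in batch 2, with the lower wild type array, which lay near background, in batch 2. Aurka and Aurkb, the Aurora kinases of the spindle poles and of the centromere, rose by 1.72 ± 0.27 and 1.32 ± 0.26, and Plk4, the kinase of centriole duplication, by 2.23 ± 0.44 (Aurkb and Plk4 were chosen after their values were seen).

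Of 19 tested genes of the spindle checkpoint and of anaphase 8 were higher, with a median of 1.21. Pttg1, securin, which holds separase inactive until anaphase, had 7.73, 7.90, 7.88, 9.06 and 8.43 in N750F livers, against 5.96 and 5.82 in wild type livers (2.37 ± 0.27, adjusted p = 0.00235). Mad2l1, a sensor of unattached chromosomes, rose by 2.22 ± 0.38. Ttk, the kinase that starts the checkpoint, had 8.34, 8.82, 8.82, 8.68 and 8.72 in N750F livers, against 6.29 and 6.20 in wild type livers (2.43 ± 0.36, adjusted p = 0.00785). Its changes of 2.36 in batch 1 and 2.50 in batch 2 were close to each other. The checkpoint kinase Bub1 rose by 2.44 ± 0.55 (adjusted p = 0.0449) and Bub1b by 1.96 ± 0.32. Cdc20 and Ube2c, which feed the anaphase-promoting complex, rose by 1.59 ± 0.26 and 1.72 ± 0.38.

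Of 24 tested centromere and kinetochore genes 10 were higher, with a median of 1.59. Birc5, survivin, a subunit of the chromosomal passenger complex, had 8.34, 9.44, 8.89, 8.87 and 8.51 in N750F livers, against 5.32 and 5.38 in wild type livers (3.45 ± 0.61, adjusted p = 0.0134). With the wild type values near background its size followed the added offset (4.05 for Birc5 when 1 was added, 2.68 when 50 was added). Cenpf had 8.83, 8.80, 8.39, 9.20 and 9.19 in N750F livers, against 6.33 and 5.15 in wild type livers (3.16 ± 0.38, adjusted p = 0.00235). For both Birc5 and Cenpf the lowest N750F array lay well above the higher wild type array. The change in batch 1 and batch 2 was 3.57 and 3.31 for Birc5, and 2.35 and 4.05 for Cenpf. Ndc80 and Knl1, parts of the microtubule-binding plate of the kinetochore, rose by 1.82 ± 0.33 and 2.17 ± 0.36, and the kinesin Cenpe by 2.35 ± 0.41. Cenpa, the histone that marks centromeres, had 0.73 ± 0.27 (adjusted p = 0.235), with 1.19 in batch 1 and 0.24 in batch 2.

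Of 16 tested kinesins and spindle genes 12 were higher, with a median of 1.88, and 15 separated the groups. Nusap1, which bundles spindle microtubules, had 8.65, 8.57, 8.09, 8.82 and 9.11 in N750F livers, against 6.08 and 6.51 in wild type livers (2.41 ± 0.34, adjusted p = 0.00525). Kif18a had 8.09, 7.39, 7.53, 7.36 and 7.85 in N750F livers, against 6.38 and 5.02 in wild type livers (1.90 ± 0.32, adjusted p = 0.0104). Kif20b rose by 2.24 ± 0.34, Kif4 by 1.97 ± 0.36 and Tacc3 by 2.14 ± 0.35. Kif11, the motor that pushes spindle poles apart, had 8.73 to 9.13 in N750F livers, against 6.41 and 7.29 in wild type livers, and its change of 2.09 ± 0.51 just missed the threshold (adjusted p = 0.0642). Of 9 tested cytokinesis genes 6 were higher, with a median of 1.87. Anln, anillin, which organises the contractile ring, had 8.46, 8.79, 8.71, 8.68 and 8.83 in N750F livers, against 5.76 and 4.42 in wild type livers (3.55 ± 0.47, adjusted p = 0.00474). Wild type array 4 lay at the background level that Y-linked genes had in female livers (4.44 to 4.61). The change of Anln was 2.89 in batch 1 and 4.34 in batch 2, and 4.53 when 1 was added before the log and 2.65 when 50 was added. Shcbp1, a partner of the cytokinesis machinery, rose by 2.72 ± 0.43, Cep55, the abscission scaffold, by 2.04 ± 0.34 and Kif23 by 1.78 ± 0.28. Ect2, the exchange factor that activates RhoA at the cleavage furrow, had 1.87 ± 0.44 (adjusted p = 0.0532).

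Among the 20 largest increases were further genes of S phase and mitosis. Esco2, which acetylates cohesin, had 8.01, 7.91, 7.85, 8.62 and 7.98 in N750F livers, against 6.00 and 4.43 in wild type livers (2.86 ± 0.44, adjusted p = 0.00904). Depdc1a had 8.07, 7.89, 7.83, 8.88 and 8.80 in N750F livers, against 5.76 and 5.95 in wild type livers (2.50 ± 0.40, adjusted p = 0.00904). Both separated the groups in each batch, but wild type array 4 lay near background for Esco2, so the size of its change is uncertain. Neil3, a DNA glycosylase made in dividing cells, rose by 2.52 ± 0.43 (adjusted p = 0.0114) and Parpbp, which restrains homologous recombination, by 2.56 ± 0.44 (adjusted p = 0.012). Slc16a1, the lactate transporter MCT1, had 8.86, 9.01, 8.91, 9.51 and 8.81 in N750F livers, against 8.06 and 4.44 in wild type livers (2.72 ± 0.62, adjusted p = 0.0486). Its level in wild type array 4 was below that of every other array of the series, and the change was 0.87 within batch 1 and 4.73 within batch 2.

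Genes of DNA replication were higher in part. Of 70 listed genes 69 had a probe set and 59 were tested, and 15 were higher (25.4%, against 1.13% of all genes), none lower and 44 not called. The median change was 0.98, with 0.69 in batch 1 and 1.17 in batch 2. The mean level of the 59 genes was 7.62, 7.81, 8.06, 7.89 and 7.90 in N750F livers, against 7.11 and 6.69 in wild type livers. For 36 of the 59 all 5 N750F arrays lay above both wild type arrays (61.0%, against 6.78%). Without wild type array 4 these calls were lost, and the median change was 0.73. Whether the changes of replication genes were smaller than those of division genes was not tested.

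Of 18 tested genes of origin licensing 2 were higher, with a median of 0.77. They were Mcm4, at 8.36, 8.80, 9.03, 8.98 and 8.92 in N750F livers against 7.72 and 6.36 in wild type livers (1.74 ± 0.36, adjusted p = 0.0317), and Mcm7 (1.67 ± 0.38, adjusted p = 0.0449), both subunits of the replicative helicase. The subunits Mcm3 (0.99 ± 0.25, adjusted p = 0.0744), Mcm6 (1.21 ± 0.38, adjusted p = 0.158) and Mcm2 (0.83 ± 0.33, adjusted p = 0.267) were not called. Gmnn, geminin, which blocks a second round of licensing, overlapped between the groups, with 5.45 to 8.13 in N750F livers against 6.62 and 7.32 in wild type livers (0.15 ± 0.37, adjusted p = 0.883). Of 21 tested polymerase, primase and clamp genes 7 were higher, with a median of 1.08. Prim1, the catalytic primase, had 10.17, 10.06, 10.63, 10.36 and 9.89 in N750F livers, against 8.65 and 6.96 in wild type livers (2.35 ± 0.35, adjusted p = 0.00791). Pole2, a subunit of the leading-strand polymerase, had 7.34, 7.39, 7.80, 7.90 and 7.90 in N750F livers, against 5.89 and 5.43 in wild type livers (2.03 ± 0.28, adjusted p = 0.00525). Both separated the groups within each batch, with changes in batch 1 and batch 2 of 1.64 and 3.17 for Prim1, and 1.62 and 2.47 for Pole2. Pola1 (1.74 ± 0.32), Tipin (1.29 ± 0.24), Prim2 (1.23 ± 0.23), Pole (1.49 ± 0.31) and Fen1 (1.34 ± 0.28) were also called, Pole and Fen1 being chosen after their values were seen, while the clamp Pcna had 0.67 ± 0.22 (adjusted p = 0.182).

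Of 12 tested genes of deoxynucleotide synthesis 3 were higher, with a median of 0.71. Rrm1, the large subunit of ribonucleotide reductase, had 8.82, 8.97, 9.22, 8.75 and 8.15 in N750F livers, against 7.38 and 6.32 in wild type livers (1.85 ± 0.34, adjusted p = 0.0155). The small subunit Rrm2 had a change of like size, 1.95 ± 0.53, that was not called (adjusted p = 0.0952). The thymidylate kinase Dtymk and the deoxycytidine kinase Dck rose by 1.48 ± 0.31 and 1.37 ± 0.31, and thymidylate synthase, Tyms, had 1.27 ± 0.42 (adjusted p = 0.182). Of 8 tested genes of chromatin copying 3 were higher, with a median of 0.86. Hells had 9.21, 8.78, 9.52, 9.51 and 9.22 in N750F livers, against 7.70 and 6.28 in wild type livers (2.25 ± 0.40, adjusted p = 0.0134). Dnmt1, the maintenance DNA methyltransferase, rose by 1.05 ± 0.21 (adjusted p = 0.0303), and Atad2, a bromodomain ATPase, by 2.27 ± 0.39 (adjusted p = 0.0114). Atad2 stood at 8.00 and 5.04 in the wild type arrays, so its change was 1.34 in batch 1 and 3.30 in batch 2.

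**Figure D3:**
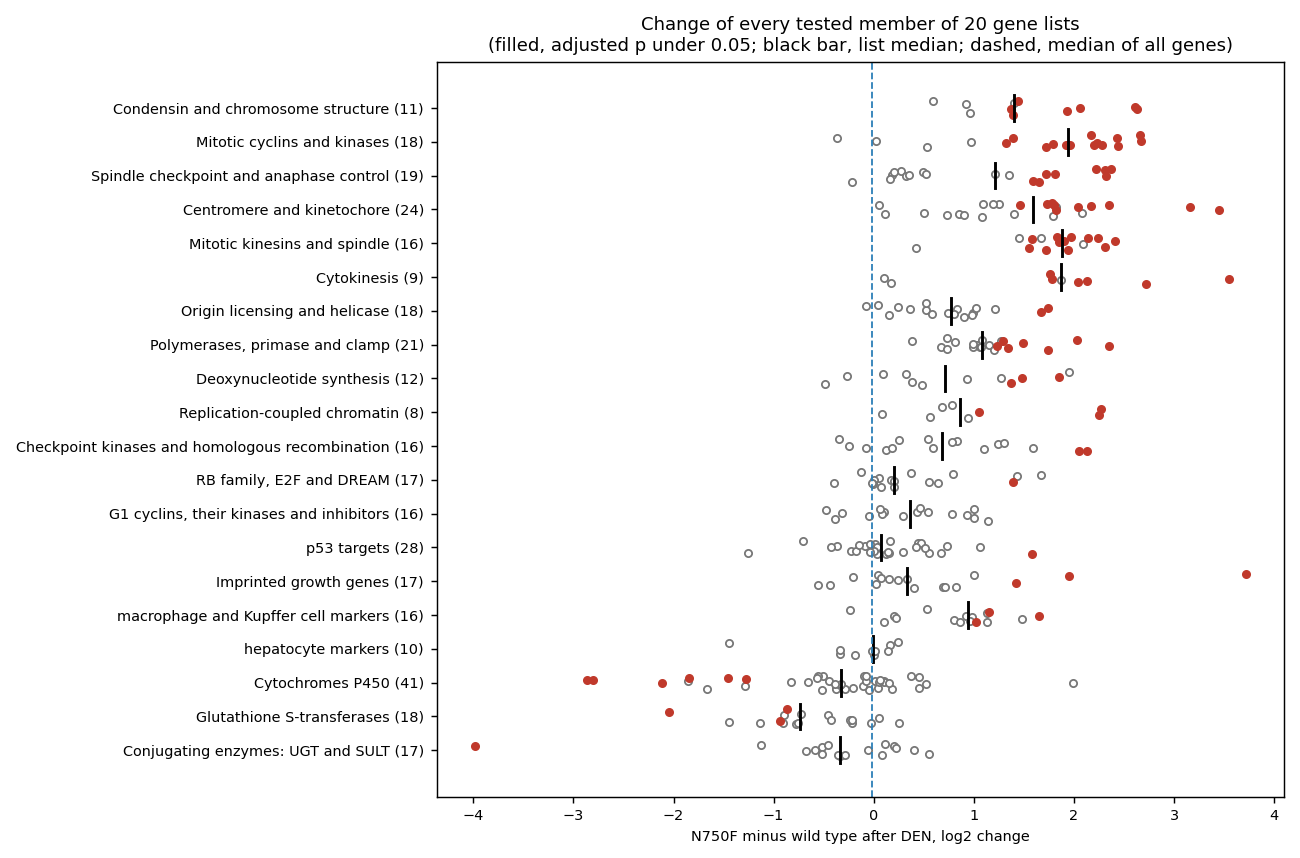
Log2 change, N750F minus wild type after DEN, of every tested member of 20 gene lists, 1 point per gene. Filled points passed an adjusted p of 0.05, black bars are list medians and the dashed line is the median of all genes (-0.01); the medians of the 6 lists of cell division run from 1.21 to 1.94.

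The short words defined above were counted, as a description without a test, in windows of 250 bases before to 50 bases after the start. RefSeq gave such a window for 11780 of the 14953 genes tested, 138 of the 169 higher and 35 of the 43 lower. The CHR word was present in 13.8% of all windows, in 36.2% of those of the higher genes and in 14.3% of those of the lower genes. Among the called genes of cell division 32 of 49 windows held it (65.3%), against 3 of 10 among the called genes of replication (30%). The E2F words were present in 3.35% of all windows, in 4 of 10 of the called replication genes (40%), in 5 of 49 of the called division genes (10.2%) and in 0 of 35 of the lower genes. The CCAAT word was common everywhere, in 37.9% of all windows, 71.4% of those of the called division genes and 60% of those of the called replication genes. A matching word is not a bound site, its absence from this window says nothing about a factor, and the genes of these lists are known to share such elements in any tissue.

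**Figure D4:**
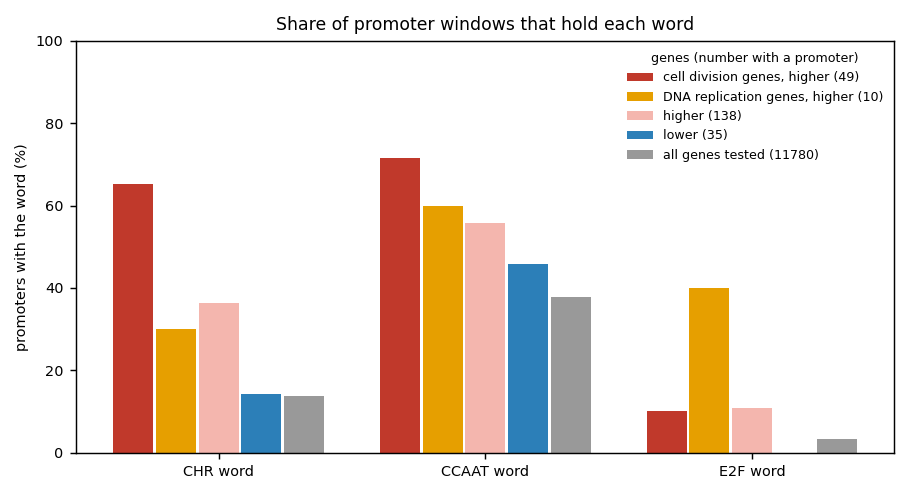
Share of promoter windows, in percent, that hold the CHR, CCAAT and E2F words, for the called division and replication genes, all higher and all lower genes and all genes tested. The CHR word was in 65.3% of the called division genes and 13.8% of all genes; no window of a lower gene held an E2F word, so that bar has no height.

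Genes of the DNA damage response gave a mixed picture. Of 16 tested checkpoint kinases and recombination genes 2 were higher, with a median of 0.69. Chek1, the kinase of the replication checkpoint, had 8.08, 7.63, 8.15, 7.92 and 7.90 in N750F livers, against 5.69 and 5.94 in wild type livers (2.13 ± 0.30, adjusted p = 0.00525). Its changes of 2.26 in batch 1 and 1.97 in batch 2 were close. Rad54b, a recombination motor, rose by 2.05 ± 0.30 (adjusted p = 0.00746), and Brca1 (1.24 ± 0.35, adjusted p = 0.115) and Brca2 (1.30 ± 0.31, adjusted p = 0.0603) were not called.

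Targets of p53 gave 1 call of 28 tested and a median of 0.08. Of 32 listed targets 29 had a probe set, and neither Cdkn1a (p21) nor Bax was among those 29, so the list does not cover them. The called gene was Ckap2, a spindle protein, at 7.41, 8.16, 8.38, 8.43 and 8.05 in N750F livers, against 7.03 and 5.95 in wild type livers (1.58 ± 0.34, adjusted p = 0.0353). Ccng1, cyclin G1, a direct p53 target, had 12.49, 12.36, 12.57, 12.55 and 12.52 in N750F livers, against 12.55 and 12.43 in wild type livers and 10.59 and 10.69 in untreated wild type livers. Both DEN groups thus overlapped, well above the untreated livers, and the difference in Ccng1 between the genotypes was 0.01 ± 0.19 (adjusted p = 0.99). Mdm2, the ubiquitin ligase that limits p53, ran from 8.88 to 10.73 in N750F livers, against 10.22 and 9.29 in wild type livers (-0.09 ± 0.25, adjusted p = 0.899). Phlda3, a p53 target that restrains AKT, had -0.22 ± 0.26 (adjusted p = 0.725). None of 17 tested genes of excision, alkylation and mismatch repair was called by limma, with 2 higher and 0 lower at an unadjusted p under 0.05 and a median of 0.02. The alkyltransferase Mgmt was too dim to pass the filter and was not tested.

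Some drug-metabolising enzymes of the hepatocyte were lower in N750F livers. Of 96 listed cytochromes P450, glutathione S-transferases, glucuronosyltransferases and sulfotransferases 84 had a probe set and 76 were tested, of which 10 were lower (13.2%, against 0.288% of all genes), none higher and 66 not called. The median change was -0.37, with -0.29 in batch 1 and -0.39 in batch 2. All 5 N750F arrays lay below both wild type arrays for 22 of the 76 (28.9%, against 6.9%) and above both for 1. The mean level was 8.63, 8.83, 8.72, 8.74 and 8.66 in N750F livers, against 9.15 and 9.28 in wild type livers. Without wild type array 4 these calls were lost, and the median change was -0.30.

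Of 41 tested cytochromes P450 6 were lower, and 4 of these belonged to the Cyp2c family. Cyp2c50 had 8.13, 7.88, 9.88, 8.96 and 8.67 in N750F livers, against 11.34 and 11.73 in wild type livers (-2.81 ± 0.42, adjusted p = 0.00791). Cyp2c54 had 5.95, 5.78, 7.87, 6.42 and 5.70 in N750F livers, against 9.97 and 8.27 in wild type livers (-2.86 ± 0.46, adjusted p = 0.00954). N750F array 3 was the highest of its group for both. Cyp2c38 (-1.85 ± 0.25) and Cyp2c39 (-1.46 ± 0.29, chosen after its values were seen) were also lower, and since Cyp2c genes are close copies their probe sets may share signal. Cyp4f14, which oxidises leukotrienes and fatty acids, had 8.10, 7.66, 7.13, 7.57 and 7.68 in N750F livers, against 9.64 and 9.87 in wild type livers (-2.12 ± 0.26, adjusted p = 0.00235). Cyp2f2 changed by -1.27 ± 0.22. Cyp2e1, the enzyme best known for activating DEN, overlapped between the groups, with 11.71 to 12.70 in N750F livers against 12.83 and 12.31 in wild type livers (-0.33 ± 0.23, adjusted p = 0.517).

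Of 18 tested glutathione S-transferases 3 were lower, with a median of -0.74. Gstt3 had 7.89, 8.21, 8.73, 8.28 and 9.0 in N750F livers, against 10.51 and 10.45 in wild type livers (-2.04 ± 0.40, adjusted p = 0.0244). Gstm1 had 11.28, 11.43, 11.53, 11.03 and 10.97 in N750F livers, against 12.37 and 11.93 in wild type livers (-0.93 ± 0.20, adjusted p = 0.0365). Gstm3 changed by -0.87 ± 0.20 (adjusted p = 0.0449), and Gstm6, Gstm2 and Gstp1 had -1.14 ± 0.28, -1.45 ± 0.41 and -0.90 ± 0.26 without being called. Of 17 tested conjugating enzymes 1 was lower. Sult1e1, estrogen sulfotransferase, had 4.71, 4.35, 5.22, 5.29 and 4.60 in N750F livers, against 9.10 and 8.55 in wild type livers (-3.98 ± 0.48, adjusted p = 0.00235). The N750F values lay at the bottom of the range, beside the 4.44 to 4.61 read for Y-linked genes in female livers, and with Sult1e1 so dim there the fitted size followed the offset added before the log (-5.11 when 1 was added, -2.95 when 50 was added). None of 23 tested redox genes of the NRF2 pathway was called by limma (0 higher and 4 lower at an unadjusted p under 0.05, median -0.17), Nqo1 having -0.75 ± 0.35 and Gclc -0.16 ± 0.20.

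**Figure D5:**
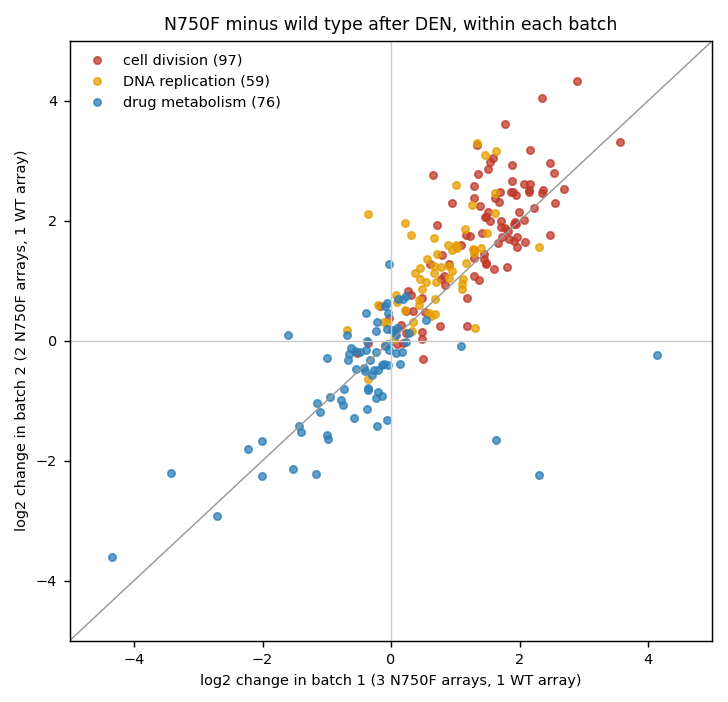
Change of each tested gene of cell division (97), DNA replication (59) and drug metabolism (76) within batch 1 (3 N750F arrays, 1 wild type array) on the x axis and within batch 2 (2 N750F arrays, 1 wild type array) on the y axis, in log2 units, with the line of equal change. Division genes have medians of 1.48 and 1.79 and drug metabolism genes of -0.29 and -0.39 in the 2 batches, and the point farthest to the right is Cyp2b9 (4.13 and -0.24, chosen after its values were seen).

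Steroid enzymes, clock genes and hepatocyte transcription factors gave 2 or 3 calls per list. Among 22 tested aldo-keto reductases and steroid dehydrogenases Akr1c18, which inactivates progesterone, had 10.06, 9.33, 9.78, 8.41 and 10.42 in N750F livers, against 5.93 and 4.84 in wild type livers (4.17 ± 0.47, adjusted p = 0.00235, or 18.0-fold), and Akr1c19 was lower (-2.07 ± 0.42, adjusted p = 0.0291). The low wild type level of Akr1c18 makes its change follow the added offset (4.86 when 1 was added, 3.37 when 50 was added). Of 15 tested clock genes Arntl, the BMAL1 activator, was higher, at 7.50, 7.92, 7.14, 7.62 and 7.28 in N750F livers against 6.48 and 5.88 in wild type livers (1.29 ± 0.28, adjusted p = 0.0375). Nr1d2, which represses Arntl, was lower, at 8.42, 8.78, 9.0, 8.88 and 8.87 in N750F livers against 9.74 and 10.17 in wild type livers (-1.14 ± 0.22, adjusted p = 0.0195), as was Per3 (-1.11 ± 0.22, adjusted p = 0.0288). The hour at which livers were taken is not given in the sources used here, and its part in these 3 calls was not tested. Of 21 tested hepatocyte transcription factors 2 were lower. Onecut1 (HNF6) had 7.61, 7.21, 6.80, 7.52 and 6.94 in N750F livers, against 9.79 and 8.60 in wild type livers (-2.01 ± 0.29, adjusted p = 0.00688), and it was 1 of the 2 genes called without wild type array 4. Cebpb, a factor of the acute phase and of regeneration, had -1.14 ± 0.26 (adjusted p = 0.0483), and Hnf4a, the main hepatocyte factor, -0.34 ± 0.20 (adjusted p = 0.469).

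Among zonal genes Slc1a2, the glutamate transporter of pericentral hepatocytes, was the 1 call of 15, at 6.03, 7.45, 6.07, 7.70 and 5.87 in N750F livers against 9.72 and 8.19 in wild type livers (-2.36 ± 0.54, adjusted p = 0.0481). Glul, glutamine synthetase, the defining gene of that zone, had -0.93 ± 0.26 (adjusted p = 0.11) with all 5 N750F arrays below both wild type arrays, and the list's median was -0.35. Of 15 tested periportal genes the protease Ctsc was higher (1.35 ± 0.29) and Cyp2f2 lower, with a median of 0.10. In amino acid breakdown Prodh, proline dehydrogenase, was the 1 call of 32, at 6.18, 6.71, 6.28, 7.44 and 6.02 in N750F livers against 8.52 and 9.10 in wild type livers (-2.24 ± 0.35, adjusted p = 0.00904). The urea cycle enzyme Cps1 had -0.02 ± 0.18 (adjusted p = 0.973). In lipid handling Fabp5 and the droplet coat protein Plin2 were higher among 13 tested genes (2.55 ± 0.42 and 1.26 ± 0.28), the elongase Elovl5 higher (1.11 ± 0.25) and the lipogenic regulator Thrsp lower (-2.04 ± 0.43) among 17, and Pdk4, which spares glucose, higher among 20 (1.43 ± 0.26). The Plin2 change was 0.68 in batch 1 and 1.88 in batch 2. Abcb4, the phospholipid transporter of bile, was the 1 call of 20 transporters (1.68 ± 0.37, adjusted p = 0.0425), but its groups overlapped and wild type array 4 stood apart at 6.03, against 9.25 in wild type array 3.

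Further secreted and enzyme genes filled the list of the 20 largest decreases. Mug1, a protease inhibitor of rodent plasma, had 9.77, 8.72, 9.29, 8.92 and 9.73 in N750F livers, against 11.42 and 11.63 in wild type livers (-2.23 ± 0.30, adjusted p = 0.00474). Orm1, an acute phase glycoprotein and the 1 call of 19 such genes, had 5.11, 5.19, 5.13, 6.43 and 5.82 in N750F livers, against 7.62 and 7.78 in wild type livers (-2.10 ± 0.34, adjusted p = 0.00904). Alas1, the rate-limiting enzyme of haem synthesis in liver, had 6.46, 6.88, 6.79, 6.24 and 6.45 in N750F livers, against 8.42 and 8.49 in wild type livers (-1.90 ± 0.38, adjusted p = 0.0246). All 3 separated the groups. Wfdc21 (-2.05 ± 0.33), Pigr, the receptor that carries IgA into bile (-1.76 ± 0.37), Adh7 (-1.55 ± 0.31) and Fmo2 (-1.47 ± 0.30) did so too. Mup3 (-1.81 ± 0.40) and Mup5 (-1.67 ± 0.34), major urinary proteins, were called with overlapping groups. N750F array 4 read 7.46 for Mup3, against 6.97 in wild type array 3, and N750F array 5 read 7.50 for Mup5, against 6.38 in wild type array 3. The Mup genes are near-identical copies, so their values are uncertain.

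Some growth genes of the young liver were higher. Of 17 tested imprinted genes 3 were called, with a median of 0.33. Igf2, the fetal growth factor, had 12.37, 11.60, 10.96, 12.24 and 12.60 in N750F livers, against 8.35 and 8.25 in wild type livers and 12.49 and 12.71 in untreated wild type livers. The N750F livers thus lay near or below the untreated level and far above the wild type livers after DEN (3.72 ± 0.41, adjusted p = 0.00235, or 13.1-fold). Peg3, a zinc-finger regulator of growth, had 8.82, 8.99, 8.46, 8.84 and 9.38 in N750F livers, against 7.45 and 6.39 in wild type livers (1.95 ± 0.33, adjusted p = 0.0112), and Mest rose by 1.42 ± 0.26 with overlapping groups. Dlk1, the fetal hepatoblast protein, had -0.21 ± 0.23 (adjusted p = 0.704). Of 14 tested oncofetal and progenitor genes Prom1 was higher, at 7.72, 9.24, 8.64, 8.28 and 8.31 in N750F livers against 6.54 and 6.57 in wild type livers (1.84 ± 0.36, adjusted p = 0.0226). Afp, alpha-fetoprotein, ran from 7.68 to 10.57 in N750F livers, against 8.27 and 6.90 in wild type livers, and was not called (1.82 ± 0.66, adjusted p = 0.226). None of 18 genes of the growth hormone and IGF1 axis was called by limma, with 2 higher and 2 lower at an unadjusted p under 0.05.

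Liver tissue holds other cell types, and in bulk RNA fewer cells of a type and less RNA per cell cannot be told apart. Markers of macrophages and Kupffer cells were higher for 3 of 16 tested genes (18.8%, against 1.13% of all genes), with a median of 0.94 (1.05 in batch 1 and 0.76 in batch 2). Their mean level was 8.04, 8.17, 7.95, 7.71 and 8.25 in N750F livers, against 7.18 and 7.24 in wild type livers and 8.47 and 8.01 in untreated wild type livers. Lyz2, lysozyme, had 8.00, 8.40, 8.24, 8.02 and 8.47 in N750F livers, against 7.14 and 7.00 in wild type livers (1.15 ± 0.20, adjusted p = 0.0126). Vsig4, the complement receptor of Kupffer cells, changed by 1.65 ± 0.27 and Ctss, a lysosomal protease, by 1.02 ± 0.20, both with overlapping groups, and Adgre1, a surface marker of mature macrophages, had 1.13 ± 0.29 (adjusted p = 0.0744) and Clec4f 0.10 ± 0.26 (adjusted p = 0.89). Stellate cell markers averaged 8.49 to 8.74 in N750F livers, against 8.25 and 7.86 in wild type livers. Of these markers 1 of 13 was called (7.69%, against 1.13% of all genes), namely Col3a1 (1.31 ± 0.28, adjusted p = 0.0365). Macrophage and stellate markers thus moved in the same direction as the division genes. Sinusoidal endothelial (13 of 14 changes above 0) and erythroid markers (5 of 7) leaned that way too. B lymphocyte (2 of 8), T and NK cell (1 of 3) and megakaryocyte markers (1 of 5) did not. The part of any cell type in the changes of the division genes was not tested.

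Cell type lists other than those of macrophages and stellate cells had no call by limma. Over all 14953 genes 1345 were higher and 848 lower at an unadjusted p under 0.05, the background for the counts of this paragraph. Sinusoidal endothelial markers averaged 7.38 to 7.90 in N750F livers, against 7.41 and 7.08 in wild type livers (2 of 14 higher at an unadjusted p under 0.05). Erythroid markers averaged 7.42 to 7.56 in N750F livers, against 7.23 and 7.13 in wild type livers (3 of 7 higher at an unadjusted p under 0.05). Neutrophil, lymphocyte, megakaryocyte and cholangiocyte lists had 3 to 8 tested members each and medians between -0.27 and 0.39. At an unadjusted p under 0.05, 3 of 7 neutrophil and myeloid genes were higher and 1 lower. Of 5 megakaryocyte genes 1 was higher and 1 lower. For B lymphocytes 1 of 8 was higher, for cholangiocytes 1 of 4, and for T and NK cells 0 of 3, with none lower. Mpo, Cd79a, Pf4 and Krt19, defining genes of 4 of these cell types, were too dim to be tested. Muscle and pancreas lists had medians of -0.14 and -0.13, and the muscle gene Tnnt3 was too dim to be tested. No member was called by limma in the lists of interferon-stimulated genes (20 tested, median 0.48, with 0.69 in batch 1 and -0.11 in batch 2), cholesterol synthesis (16, -0.06), glycolysis and gluconeogenesis (19, 0.07), ER stress (22, -0.16), ribosome biogenesis (17, -0.13), immediate early genes (16, -0.22), metallothioneins (9, -0.19) and secreted liver proteins (19, 0.03). In the same order 4, 0, 4, 0, 0, 0, 1 and 0 members were higher and 0, 1, 0, 1, 3, 2, 1 and 0 lower at an unadjusted p under 0.05. Of 14 tested histone genes the linker histone H1f5 was called (1.05 ± 0.23, adjusted p = 0.0376).

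The other arrays place these levels. By Xist and the Y-linked genes both knockout livers were male, and untreated wild type array 1 was male and array 2 female. Y-linked genes were also high in heterozygous arrays 3 and 4 (9.41 and 9.34), with Xist at 6.16 and 8.05. Both wild type DEN livers were female, so sex differed between these groups. The knockout and untreated arrays all lay in batch 1, while the N750F, heterozygous and wild type DEN groups had arrays in both batches. The levels below are not adjusted for batch, and the part of sex or batch in them was not tested. The mean level of the 97 division genes was 8.02 to 8.32 in N750F livers, 8.50 and 7.18 in the 2 knockout livers, 6.45 and 6.36 in the heterozygous livers, 6.75 and 6.57 in wild type livers after DEN and 7.48 and 7.31 in untreated wild type livers. N750F livers thus lay above the untreated wild type level, while wild type and heterozygous livers lay below it. The knockout arrays lay far apart, on either side of the N750F range. For Ccnb2 the levels were 8.26 to 8.97 in N750F livers, 9.04 and 8.28 in knockout livers, 6.37 and 6.28 in heterozygous livers, 6.66 and 6.78 in wild type livers and 8.23 and 8.46 in untreated livers. For the drug metabolism genes the mean level was 8.63 to 8.83 in N750F livers, 8.68 and 8.97 in knockout livers, 9.58 and 9.29 in heterozygous livers, 9.15 and 9.28 in wild type livers and 8.89 and 8.83 in untreated livers.

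In the same limma model N750F minus heterozygous gave 245 called genes, N750F minus knockout 0 (1823 at an unadjusted p under 0.05), knockout minus wild type 7 and heterozygous minus wild type 1. These comparisons share arrays with N750F minus wild type, so their values are given side by side and not as separate support. Their groups also differ in the sex of the mice, as given above. Against heterozygous livers Mki67 changed by 3.55 ± 0.40, Top2a by 3.29 ± 0.49 and Cyp2c50 by -2.63 ± 0.42, with adjusted p-values of 0.00061, 0.00357 and 0.00532. Against knockout livers Mki67, Top2a and Cyp2c50 had 0.87 ± 0.42, 1.32 ± 0.51 and -1.40 ± 0.44, with adjusted p-values of 0.431, 0.346 and 0.277, and the 2 knockout arrays read 10.14 and 7.95 for Mki67. For Akr1c18 both wild type livers after DEN lay below every array of the other groups, with 8.41 to 10.42 in N750F, 10.51 and 10.88 in knockout, 10.47 and 10.32 in heterozygous and 9.30 and 7.77 in untreated wild type livers. It was the 1 gene called in heterozygous minus wild type livers (5.01 ± 0.56, adjusted p = 0.00641).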

How the data were processed

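Total RNA from 13 mouse livers was read on single-colour Affymetrix arrays. The authors deposited linear intensities, 1 per probe set, and per the submitters' processing notes RMA and Affymetrix Expression Console 1.1 were used, with no role given. The medians of the deposited intensities differed between arrays, so the values were quantile normalized over the 13 arrays, 16 was added and log2 was taken. A plan made for values already normalized on a log scale was changed in this way. Of 35556 probe sets, 21789 had 1 gene symbol, 1621 several and 12146 were not listed. The probe set with the highest mean stood for each of 19938 genes, and the dimmest 25% were left out, leaving 14953. limma 3.58.1 in R 4.3.3 fitted group and batch (the run named in the raw array names, 9 and 4 arrays), with 7 residual degrees of freedom and Benjamini-Hochberg adjustment over all genes tested.

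Named were Rb1, up to 20 genes in each direction with the largest called change (leaving out Xist, Y-linked genes, small RNAs and predicted loci) and, per list, the defining members and up to 5 with the smallest p. Genes outside this rule are said to be chosen after their values were seen. The comparison, the 55 lists and their members were chosen with earlier results of these data known. The lists held 1106 entries, of which 96 were not matched to a probe set and 17 matched by an older symbol. Another probe set existed for 5 of 125 named genes that were called, and none ran the opposite way, but that of Top2a, which was dim, showed almost no change. Simulated data had 200 of 14953 genes changed. The model recovered 31% of changes of 1 and 86% of changes of 2 on the log2 scale, with 8 false calls among 125. These rates describe the simulated data only. The calls in the measured data depended on which wild type array was in the model. The share of false calls among them was therefore not measured by the simulation. No 2 arrays held identical values. The number of arrays limits the precision. Alternatives covered the offset, normalization, dim filter, probe set choice, batch, replicate block, the arrays in the model and each N750F or wild type DEN array left out. They also covered array quality weights, a variance that follows intensity, and the mean level of Y-linked genes as a covariate. With that covariate 153 genes were called (122 higher, 31 lower), of which 145 were among the 212 of the main model.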

Additional observations from a re-analysis of the deposited data

Results flagged for a closer look

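In 4 of 84 values examined 1 array of the 5 N750F livers lay farther from the rest than Dixon's 95% critical value allows, which chance does in about 1 in 20 groups, so that chance alone would give about as many. The level of Cyp2b9 was 5.23 in N750F array 3, against 10.46 to 11.48 in the other N750F arrays. The mean level of the tested cytochromes P450 was 8.89 in N750F array 2, against 8.66 to 8.72 in the others. The mean level of the conjugating enzymes was 8.95 in N750F array 4, against 8.59 to 8.66 in the others. The mean level of the hepatocyte markers was 11.12 in N750F array 2, against 10.79 to 10.89 in the others. The part of these arrays in the comparison was not tested beyond leaving each out in turn.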

How the results depend on the processing

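Against 212 called genes (169 higher, 43 lower), the model without a batch term called 104 (82 and 22), batch 1 alone 0, the model without knockout arrays 319 (261 and 58) and, chosen after seeing the data, the model without the number 4 arrays of both groups 3 (1 and 2). Leaving out each array in turn gave 2 to 494 calls, 0 to 410 higher and 2 to 84 lower, with the fewest without wild type array 4 and the most without wild type array 3. Genes called lower numbered 23 with an offset of 1, 65 with an offset of 50, 9 in batch 2 alone, 24 with array quality weights and 28 with no normalization, an alternative also chosen after seeing the data.

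The median change of the cell division genes, 1.73, was 1.98 with an offset of 1, 1.32 with 50, 1.85 with median scaling, 1.59 with no filter, 1.48 in batch 1 and 1.54 without the number 4 arrays, and 1.54 to 1.78 with each array left out. Of these genes 0 were called in batch 1 or without the number 4 arrays, 37 in batch 2 and 0 to 46 with each array left out (57 with all arrays). The median of the replication genes, 0.98, was 0.77 with an offset of 50, 0.69 in batch 1, 1.17 in batch 2 and 0.74 without the number 4 arrays, and 0.73 to 1.13 with each array left out. Of these 6 were called with no batch term, 0 in batch 1 or without the number 4 arrays, 7 in batch 2 and 0 to 15 with each array left out (15 with all arrays). The drug metabolism median, -0.37, was -0.29 in batch 1, -0.27 without the number 4 arrays and -0.41 to -0.30 with each array left out. Of these 0 were called lower in batch 1 or without the number 4 arrays, 3 in batch 2 and 0 to 9 with each array left out (10 with all arrays). Batch 1 and the models without wild type array 4 hold 1 wild type DEN array, which is assumed to vary like the other groups, and otherwise the cause of a moved count was not tested.

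Only the numbers 3 and 4 occur in both groups. Deviations from the group means correlated at 0.346 for number 3 and 0.27 for number 4. Arrays of the same number also lay in the same batch, so a pairing and a shared batch cannot be told apart. The crossed pairs gave -0.346 and -0.27, the same sizes with the sign reversed, and so add nothing. These correlations therefore cannot decide on a pairing, and no more than the shared number is known of it. With the replicate block in place of batch 36 genes were called (30 higher, 6 lower), among them 15 division genes, 3 replication genes and 3 drug metabolism genes. No called gene named in the text changed sign under any alternative run. Genes near background, such as Sult1e1 in N750F livers and Akr1c18 in wild type livers, have changes whose size follows the offset.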

Other observations

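The genes in this part were chosen after their values were seen and support nothing by themselves. Those of this paragraph were called by limma unless said otherwise. They are single genes and not a theme. Ogn, osteoglycin, rose by 1.55, Aspn, asporin, by 1.58, Spon2 by 1.36, Nid1, the basement membrane linker nidogen, by 1.18, Fstl1 by 1.12 and Mgp, the inhibitor of calcification, by 1.1 on the log2 scale. The listed matrix genes Col1a1, Dcn and Lum were not called, with changes of 0.03 for Col1a1, 0.08 for Dcn and 0.25 for Lum. The microglia and macrophage gene Aif1 rose by 1.65, Cybb, the catalytic subunit of the phagocyte oxidase, by 1.28 and Cd44, the hyaluronan receptor, by 1.02. The X-linked genes Bex3, Bex4 and Tceal9 rose by 2.15, 1.91 and 1.45, the antiproliferative gene Btg1 by 1.89, and Psat1 and Mthfd1l, of serine and one-carbon metabolism, by 1.14 each. Baat, which joins bile acids to amino acids, changed by -1.27.

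Expression of 3 genes of chromosome 7 (assembly GRCm38.p6) fell into separate levels that did not follow genotype. Cyp2b9 was between 4.81 and 5.23 in N750F array 3, knockout array 1 and wild type array 3 after DEN, all of batch 1, and between 10.42 and 11.48 in the other 10 arrays. In the same 3 arrays the sulfotransferase gene Sult2a6 was between 4.61 and 6.00, against 8.03 to 10.49 in the others, and Cyp2b13 was between 4.41 and 4.76, against 6.70 to 9.79. Of 19938 genes, 3 were lower and 0 higher in these 3 arrays than in all others by a gap over 1 on the log2 scale. Cyp2b genes are close copies, so their probe sets may share signal. The change of Cyp2b9 between N750F and wild type livers was 4.13 in batch 1 and -0.24 in batch 2, and no explanation of the split was tested.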
